A study of Mus musculus with 8 samples.

Results

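Immediate early response genes are the first genes that a cell transcribes after a stimulus. The 36 members described here were chosen by gene symbol, and all 36 had a row among the 23116 genes of the deposited matrix. Total RNA was sequenced, after removal of ribosomal RNA, from microdissected dorsal lateral geniculate nucleus, where retinal signals pass through the thalamus on their way to the visual cortex. The 4 mice labelled Fn14 KO lack, by their label, the TWEAK receptor Fn14 (encoded by Tnfrsf12a), and the 4 labelled Fn14 WT are their wild-type littermates. All 8 are labelled as C57BL/6J at postnatal day 27 in standard housing, with no time after a light stimulus given. Each library came from 1 mouse. Mice of both sexes were used, and the sources used here do not give the sex of each mouse, which part of Tnfrsf12a was removed or in which cells. Names KO 1 to KO 4 and WT 1 to WT 4 stand for the libraries. Levels are in TPM (a share of all transcripts, which corrects for transcript length), and differences are KO minus WT on the log2(TPM + 1) scale.

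In neurons, calcium entry and growth factor signals reach the nucleus through the ERK and calcium-dependent kinases and act on the transcription factors CREB, SRF and MEF2, which are already present. These switch on immediate early genes without new protein synthesis. Many of the products are transcription factors, such as the AP-1, EGR and NR4A families, which in turn drive a later wave of genes for secreted and synaptic proteins. Others, such as the DUSP phosphatases, feed back on the kinases. Such transcripts are short-lived, so their level follows recent activity, and in the visual system light after darkness is a classical inducer.

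The labels were first set beside the targeted gene and the tissue markers. Tnfrsf12a was at 2.95, 1.12, 1.32 and 1.86 TPM in KO 1 to KO 4, against 4.78, 5.48, 3.67 and 0.82 TPM in the libraries labelled WT 1 to WT 4. The library labelled WT 4 lay below every KO library, against its label, and the difference did not pass (−0.63, SE 0.43, adjusted p = 0.452 in limma, and −0.09 without WT 1 and WT 2). Over all 70 assignments of the mice to the groups, a two-sided exact permutation p was 0.229, where 0.0286 is the smallest possible. The libraries WT 1 and WT 2 formed a pair of their own. Mbp, a major myelin protein gene, reached 11153 and 13566 TPM in them, against 34.4 to 51.3 TPM in the rest. Dcx, which marks young neurons, went the other way, with 5.08 and 9.5 TPM there and 368 to 619 TPM in the rest. All 8 libraries carry 1 stated age, and whether the labels and age hold for WT 1 and WT 2 was not tested. A KO minus WT difference over all libraries thus sets KO against WT libraries of unlike kinds and cannot be read as the effect of the genotype alone. For the members described in full, the difference without WT 1 and WT 2 is given as well. Tcf7l2, a transcription factor of thalamic neurons, was detected in every library, with 43.4 TPM in WT 3 and 249.5 to 1074 TPM in the others.

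Promoter sequence is shown for 4 members that stood on different sides of the comparisons below. The RefSeq table (GRCm38.p6) held windows for 28 of the 36 members, and not for Fosl1, Egr1, Egr3, Arc, Ier2, Klf10, Sik1 and Trib1. The 250 bases before each annotated start were searched on both strands for the CArG box bound by SRF, the cyclic AMP response element TGACGTCA, the AP-1 element TGANTCA and the EGR element GCGNGGGCG, which do not overlap one another in the 4 windows printed. Dusp5 and Dusp1 encode phosphatases of the MAP kinases, and Nr4a1 and Nr4a2 are related nuclear receptors. Sequences run 5′ to 3′ on the gene's strand, with matches in capitals: a pair of adjoining CArG boxes in Dusp5, TGACGTCA in Dusp1, and the EGR element in Nr4a1 (on the opposite strand) and in Nr4a2.
Dusp5 promoter, chr19:53528895-53529144, plus strand: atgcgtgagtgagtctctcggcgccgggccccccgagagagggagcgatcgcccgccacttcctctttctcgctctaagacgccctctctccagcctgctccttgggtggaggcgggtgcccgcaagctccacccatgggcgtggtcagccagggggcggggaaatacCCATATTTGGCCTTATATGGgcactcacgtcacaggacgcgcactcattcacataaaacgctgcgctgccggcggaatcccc
Dusp1 promoter, chr17:26508473-26508722, minus strand: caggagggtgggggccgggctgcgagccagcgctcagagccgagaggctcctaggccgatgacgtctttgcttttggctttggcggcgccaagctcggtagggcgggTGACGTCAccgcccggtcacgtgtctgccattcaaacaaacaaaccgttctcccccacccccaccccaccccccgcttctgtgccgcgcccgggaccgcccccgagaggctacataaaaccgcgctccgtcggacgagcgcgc
Nr4a1 promoter, chr15:101266596-101266845, plus strand: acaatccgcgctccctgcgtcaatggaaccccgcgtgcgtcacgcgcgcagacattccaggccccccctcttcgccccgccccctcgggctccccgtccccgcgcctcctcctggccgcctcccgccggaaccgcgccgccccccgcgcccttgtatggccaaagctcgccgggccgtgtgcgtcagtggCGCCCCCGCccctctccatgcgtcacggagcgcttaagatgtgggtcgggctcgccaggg
Nr4a2 promoter, chr2:57124004-57124253, minus strand: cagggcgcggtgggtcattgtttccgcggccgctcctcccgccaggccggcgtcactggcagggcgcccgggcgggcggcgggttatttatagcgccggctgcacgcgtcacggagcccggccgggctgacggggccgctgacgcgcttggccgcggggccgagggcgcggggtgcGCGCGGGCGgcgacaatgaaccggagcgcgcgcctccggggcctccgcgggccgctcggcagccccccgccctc
The CArG box was found in 2 of the 28 members, Dusp5 and Egr2, and in 1.62% of 27025 genes with a window (1.47% of 32851 windows). TGACGTCA was found in 3 members, Dusp1, Btg2 and Maff, and in 1.77% of genes (1.55% of windows). The EGR element was found in 9 members and in 5.33% of genes (4.7% of windows), and TGANTCA in 1 member, Csrnp1, and in 7.82% of genes (6.75% of windows). Windows of the members were richer in G and C than all windows, with medians of 63.0% and 52.4%. A match says only that these letters are present in that window. The lack of a match says only that the exact pattern is absent from it, since sites farther away or with other letters were not searched.

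**Figure D1:**
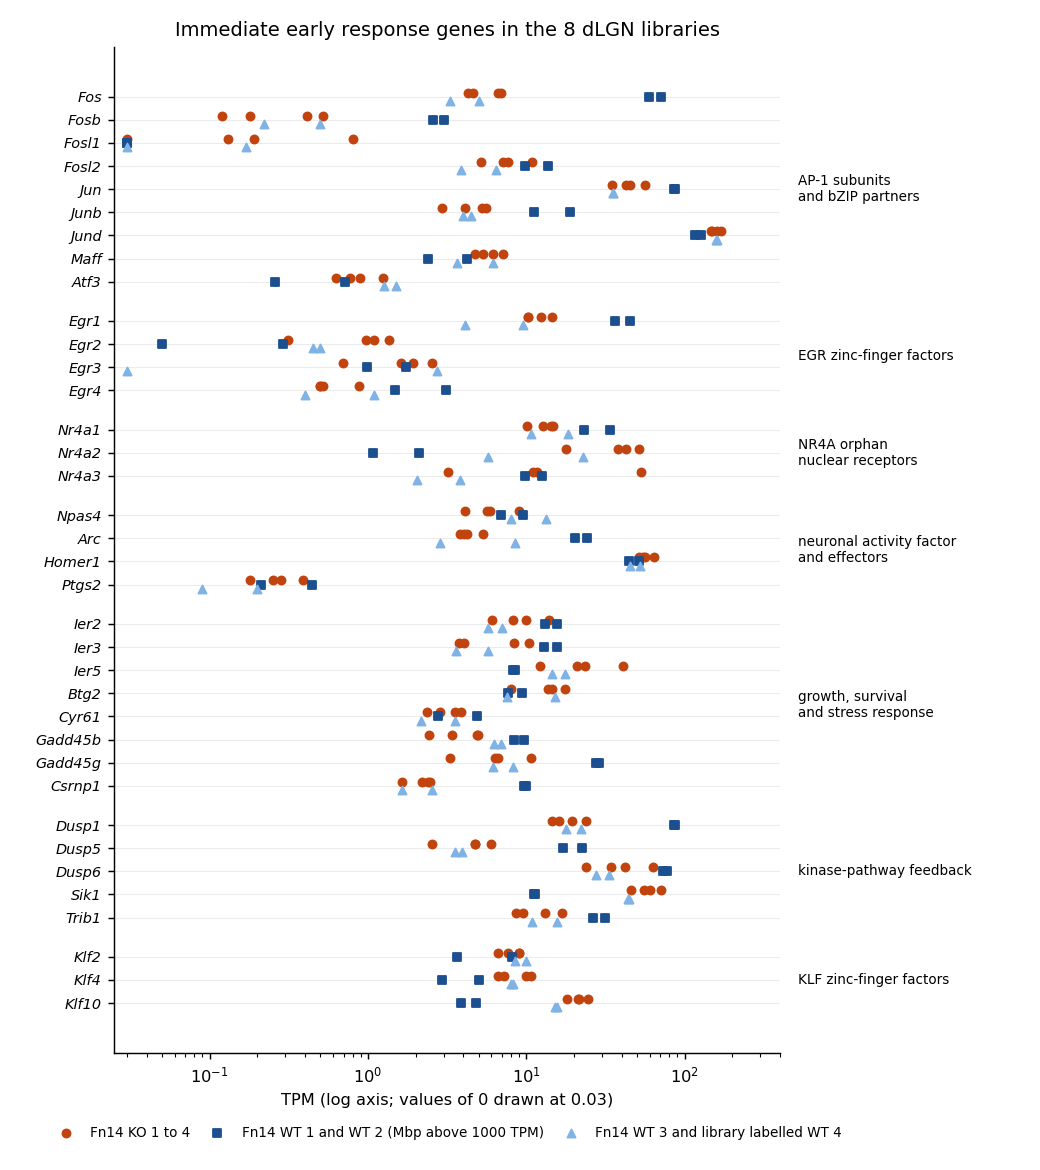
TPM of the 36 immediate early response genes (log axis, values of 0 drawn at 0.03) in the 4 Fn14 KO libraries (circles), WT 1 and WT 2 (squares) and WT 3 and the library labelled WT 4 (triangles), grouped by role. Fos, Dusp1, Dusp5 and Csrnp1 were highest in the squares, while Nr4a2, Klf10 and Sik1 were lowest there.

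The members spanned a wide range of levels. Jund, a Jun family member that many tissues express without a stimulus, had the highest mean over the 8 libraries at 148 TPM. It was followed by Jun at 52.8, Homer1 at 52.5, Dusp6 at 46.8, Sik1 at 43.0 and Dusp1 at 35.8 TPM. The classical markers of neuronal activity were lower, with means of 20.2 TPM for Fos, 17.8 for Egr1, 9.16 for Arc and 7.80 for Npas4. At the other end, 5 members had a mean under 1 TPM and were not tested, namely Fosb at 0.945, Atf3 at 0.909, Egr2 at 0.626, Ptgs2 at 0.255 and Fosl1 at 0.161 TPM. Egr4, just inside this filter at 1.06 TPM, passed it through its level in WT 1 and WT 2, since its mean over the other 6 libraries was under 1 TPM. The other 31 members entered the fit across all 15967 tested genes.

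Between KO and WT, none of the immediate early response genes passed the threshold. Adjusted p ranged from 0.429 to 0.956 over the 31 tested members, and limma called 0.0% of all 15967 genes higher and 0.0% lower at an adjusted p under 0.05. At an unadjusted p under 0.05, 4 members were higher in KO (12.9%, beside 5.33% of all genes) and 1 was lower (3.23%, beside 2.33%). Nr4a2, Klf10, Sik1 and Ier5 were the 4, and Gadd45b was the 1. The 4 KO and 4 WT libraries did not overlap for Klf10 and Sik1, higher in KO (6.45%, beside 2.42% of all genes), nor for Gadd45b, lower in KO (3.23%, beside 0.921%). Differences lay above 0 for 12 members and below 0 for 19, with a median of −0.31, where the median of all tested genes was 0.10. Only with array weights, which let the libraries count unequally, were members called. Of the 31 tested, 8 were then called higher and 16 lower in KO, beside 6569 and 3807 of all 15967 genes. The weights were 0.13 for WT 3 and 0.138 for the library labelled WT 4, against 1.71 and 3.43 for WT 1 and WT 2. That fit thus set KO mostly against WT 1 and WT 2.

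The members were then set out by the split within WT, as a description with no test, since the split was read from the data. For 15 tested members both WT 1 and WT 2 lay above all 6 other libraries (48.4%, beside 22.5% of all genes). For 6 both lay below them (19.4%, beside 40.5%), and 10 showed neither. Egr4, among the 15, had passed the filter through its level in WT 1 and WT 2. All 15 of the first set had a KO minus WT difference below 0, and all 6 of the second had one above 0. The way the sets were chosen all but fixes these signs, since WT 1 and WT 2 are part of the WT group. Without WT 1 and WT 2, 13 of the 31 tested members changed sign, the median was 0.20 beside 0.00 for all genes, and 21 members lay above 0 and 10 below. The WT side of that fit holds 2 libraries, WT 3 and the library labelled WT 4. WT 3 had the lowest summed thalamic relay neuron markers of all libraries, at 348 TPM, against 966 to 1780 TPM in KO. It also had the highest Dlx1, a GABAergic marker, at 59.3 TPM. The part of this in the differences was not tested. In the fit without WT 1 and WT 2, 3 members were higher at an unadjusted p under 0.05 (9.68%, beside 1.02% of all genes) and none lower (beside 1.1%). Adjusted p was 0.999 for each member. Of all genes 0.0% were called higher and 0.0125% lower at an adjusted p under 0.05.

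**Figure D2:**
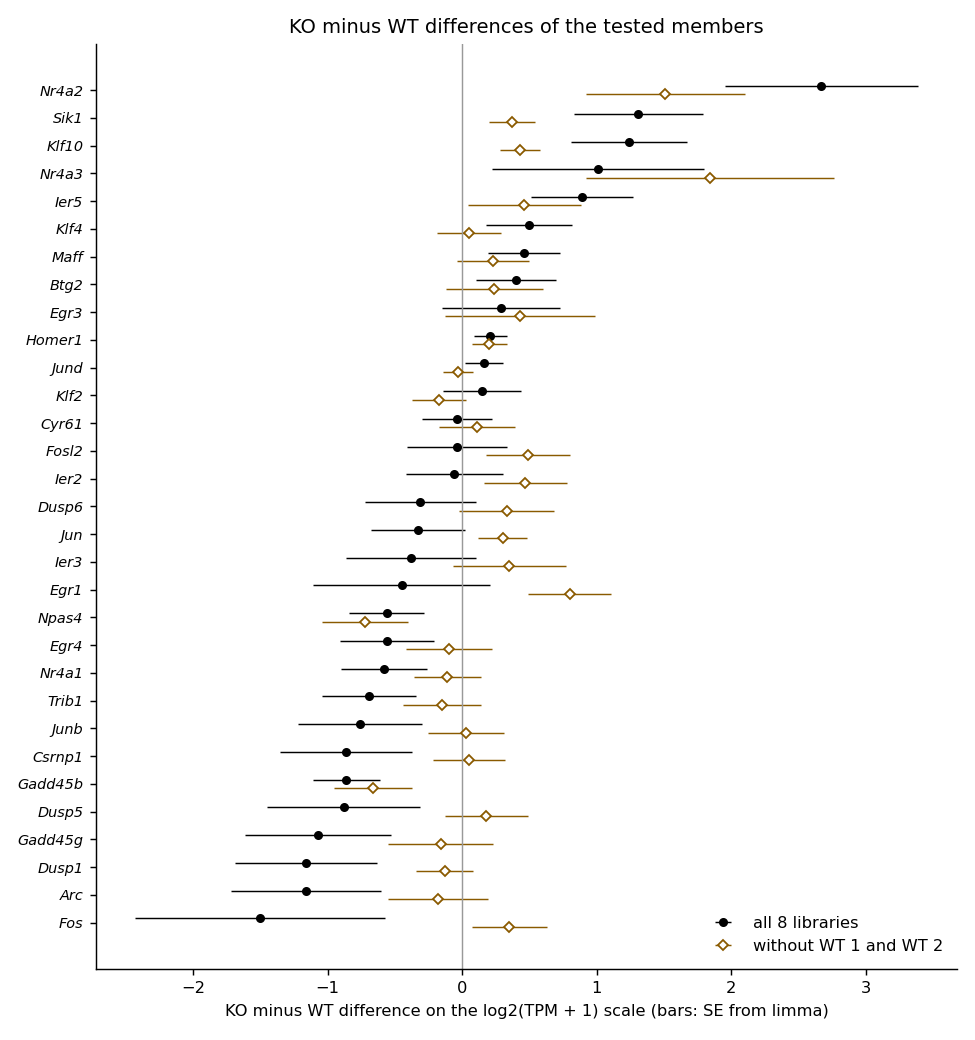
KO minus WT differences on the log2(TPM + 1) scale of the 31 tested members, with SE from limma, for all 8 libraries (filled circles) and without WT 1 and WT 2 (open diamonds), sorted by the first. Fos stood at −1.5 with all libraries and at 0.35 without WT 1 and WT 2, and the member farthest above 0 was Nr4a2 with all libraries, at 2.67, and Nr4a3 without WT 1 and WT 2, at 1.84.

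Many cell type markers, though not all, moved with the same split, and their part in the levels of these genes was not tested. Summed TPM of the 6 myelin markers with a row, of 8 chosen, was 26200 to 32800 in WT 1 and WT 2, against 55.6 to 81.7 in the other 6 libraries, where Opalin, a marker of mature oligodendrocytes, was listed at 0. The 7 young neuron markers summed to 1670 to 1690 TPM, against 8950 to 12300. Astrocyte markers (5 of 7 with a row) summed to 1700 to 1740 TPM, against 327 to 642, and the 7 microglia markers to 193 to 209 TPM, against 74.5 to 95.1. Slc1a2, at 1024 and 907 TPM in WT 1 and WT 2, made up most of the astrocyte sum there. Aldh1l1 and Slc1a3 of the astrocyte markers and Aif1 of the microglia markers did not follow the split. Endothelial markers (6 of 7) summed to 93.4 to 122 TPM, against 147 to 191, but only Cldn5, Kdr and Cdh5 were lower in both WT 1 and WT 2, while Flt1 was higher and Pecam1 and Tek were neither. The sums for mural cells (3 of 5) were 112 to 119 TPM, against 78.4 to 104. Only Rgs5 among them was higher in both WT 1 and WT 2, while Kcnj8 was lower and Pdgfrb was neither. Sums of the thalamic relay neuron markers (6 of 7) were 1430 to 1640 TPM, within the 348 to 1780 TPM of the rest, though Rora among them was at 628 and 529 TPM, against 13.9 to 101 TPM. GABAergic marker sums of 294 to 420 TPM lay within 160 to 495, though Dlx1 was at 0.49 and 0.79 TPM, against 15.3 to 59.3 TPM, and Dlx2 at 0.35 and 0.52 TPM, against 2.75 to 16.6 TPM. Sums of cortical and hippocampal neuron markers, at 2.09 to 3.72 TPM against 22.1 to 405, and choroid plexus markers, at 6.76 to 10.2 TPM against 16.1 to 434, were lower in WT 1 and WT 2 and highest in KO 1. Emx1 of the former and Kl of the latter did not follow the split. The cortical and hippocampal sum was also higher in every KO library (48.1 to 405 TPM) than in every WT library (2.09 to 42.3 TPM). For 5 of these 6 markers the groups did not overlap, higher in KO (83.3%, beside 2.42% of all genes). The part of this in the KO minus WT differences of the members was not tested. In such bulk tissue, fewer cells of a type and less RNA per cell cannot be told apart.

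AP-1 is a dimer of Fos and Jun family proteins. Fos, the classical reporter of neuronal firing (chromosome 12, 85473890 to 85477273 on the plus strand, GRCm38), was at 4.61, 6.63, 4.27 and 6.93 TPM in KO 1 to KO 4, against 59.8, 71.0, 5.05 and 3.29 TPM in the libraries labelled WT 1 to WT 4. Both WT 1 and WT 2 were at least 8.63 times the highest other library, while WT 3 and the library labelled WT 4 lay among or below the KO libraries. Means were 5.61 ± 1.36 TPM in KO and 34.8 ± 35.6 TPM in WT (SD, n = 4 each). The difference of −1.5 (SE 0.93, adjusted p = 0.432) did not pass, and it was 0.35 (SE 0.28) without WT 1 and WT 2.

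The other Fos family members were lower. Fosb, which shares the Fos role in AP-1, was at 0.12 to 0.52 TPM in KO, against 3.03 and 2.58 TPM in WT 1 and WT 2 and 0.22 and 0.50 TPM in WT 3 and the library labelled WT 4. Fosl2 was at 5.17 to 10.9 TPM in KO and 3.89 to 13.7 TPM in WT, with groups that overlapped and a difference of −0.04 (adjusted p = 0.956), and 0.49 without WT 1 and WT 2. Fosl1 was listed at 0 in KO 4, WT 1, WT 2 and the library labelled WT 4, and its highest value was 0.80 TPM in KO 1.

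Of the Jun proteins, Jun was at 42.3, 55.9, 34.7 and 45.4 TPM in KO 1 to KO 4, against 87.1, 86.2, 35.5 and 35.4 TPM in the libraries labelled WT 1 to WT 4. The highest were again WT 1 and WT 2, by at least 1.54 times. Means were 44.6 ± 8.80 TPM in KO and 61.1 ± 29.6 TPM in WT (SD, n = 4 each), a difference of −0.33 (SE 0.35, adjusted p = 0.59) that was 0.30 without WT 1 and WT 2. Junb, whose protein also pairs with Fos, was at 2.92 to 5.52 TPM in KO and 3.96 to 18.8 TPM in WT, a difference of −0.76 (adjusted p = 0.43), and 0.03 without WT 1 and WT 2. Jund showed the reverse order, at 149.6, 169, 160.2 and 146 TPM in KO 1 to KO 4, against 116, 127, 158 and 161 TPM in the libraries labelled WT 1 to WT 4. Its lowest libraries were WT 1 and WT 2. Means were 156 ± 10.1 TPM in KO and 140 ± 22.2 TPM in WT (SD, n = 4 each), a difference of 0.16 (SE 0.14, adjusted p = 0.526), and −0.03 without WT 1 and WT 2.

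Maff and Atf3, bZIP partners of AP-1 proteins, did not share the Fos pattern. Maff was at 4.75 to 7.16 TPM in KO and 2.39 to 6.18 TPM in WT, a difference of 0.46 (adjusted p = 0.429), and 0.23 without WT 1 and WT 2. Atf3, a stress-induced repressor, was at 0.63 to 1.24 TPM in KO, against 0.26 and 0.72 TPM in WT 1 and WT 2 and 1.5 and 1.26 TPM in WT 3 and the library labelled WT 4.

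EGR factors are zinc-finger proteins induced through SRF. Egr1 was at 10.3, 12.4, 10.2 and 14.5 TPM in KO 1 to KO 4, against 36.3, 45.4, 9.5 and 4.08 TPM in the libraries labelled WT 1 to WT 4. The KO libraries lay between the pairs of WT libraries, under WT 1 and WT 2 and over WT 3 and the library labelled WT 4. Means were 11.8 ± 2.03 TPM in KO and 23.8 ± 20.1 TPM in WT (SD, n = 4 each). With all libraries the difference was −0.45 (SE 0.66, adjusted p = 0.702), and without WT 1 and WT 2 it was 0.80 (SE 0.31, unadjusted p = 0.0366, adjusted p = 0.999).

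The other EGR genes had low levels. Egr4 was at 0.50 to 0.88 TPM in KO, against 1.48 and 3.13 TPM in WT 1 and WT 2 and 0.40 and 1.09 TPM in WT 3 and the library labelled WT 4. Egr2 was the reverse, at 0.31 to 1.35 TPM in KO, against 0.29 and 0.05 TPM in WT 1 and WT 2 and 0.50 and 0.45 TPM in WT 3 and the library labelled WT 4. Egr3 was at 0.69 to 2.52 TPM in KO and 0 to 2.72 TPM in WT, listed at 0 in the library labelled WT 4.

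**Figure D3:**
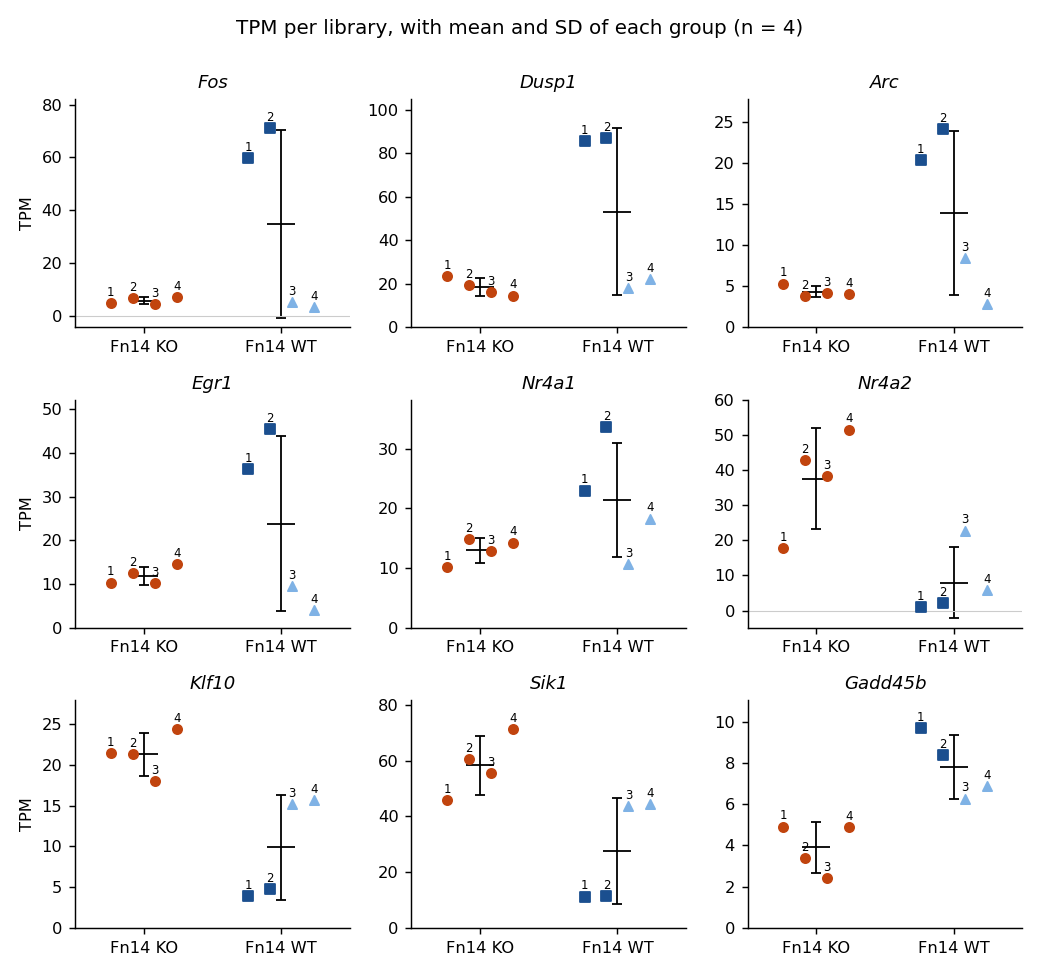
TPM in each library (points, numbered by replicate) for 9 members, with the mean and SD of each group of 4, Fn14 KO on the left and Fn14 WT on the right. The 4 KO libraries lie above all 4 WT libraries for Klf10 and Sik1 and below them for Gadd45b, while Fos, Dusp1, Arc and Egr1 separate WT 1 and WT 2 (squares) from the rest.

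The 3 NR4A orphan nuclear receptors, transcription factors that act without a known natural ligand, followed 3 different patterns. Nr4a2, also needed for the formation of dopamine neurons (chromosome 2, 57106830 to 57124003 on the minus strand), was at 17.8, 42.9, 38.2 and 51.5 TPM in KO 1 to KO 4, against 1.08, 2.11, 22.7 and 5.75 TPM in the libraries labelled WT 1 to WT 4. WT 1 and WT 2 were its lowest libraries, and WT 3 lay above KO 1, so the groups overlapped. Means were 37.6 ± 14.3 TPM in KO and 7.92 ± 10.1 TPM in WT (SD, n = 4 each). The difference of 2.67 (SE 0.72, unadjusted p = 0.00575, adjusted p = 0.429) was the largest in size of the 31 tested members, and it was 1.51 (SE 0.59, unadjusted p = 0.0391, adjusted p = 0.999) without WT 1 and WT 2.

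Nr4a1 went the opposite way to Nr4a2. It was at 10.1, 14.8, 12.8 and 14.3 TPM in KO 1 to KO 4, against 23.0, 33.6, 10.6 and 18.3 TPM in the libraries labelled WT 1 to WT 4. WT 1 and WT 2 were highest and the library labelled WT 4 next, while WT 3 lay within the KO range. Means were 13.0 ± 2.10 TPM in KO and 21.4 ± 9.62 TPM in WT (SD, n = 4 each), a difference of −0.58 (SE 0.32, adjusted p = 0.429), and −0.11 without WT 1 and WT 2. Nr4a3 was at 53.3, 11.6, 3.22 and 11.1 TPM in KO 1 to KO 4, against 2.03 to 12.6 TPM in WT, so that KO 1 stood alone. Its difference of 1.01 (SE 0.79, adjusted p = 0.487) did not pass, and was 0.34 without KO 1 and 1.84 without WT 1 and WT 2. KO 1 was also the library with the most cortical and hippocampal marker RNA, which summed to 405 TPM there and to 48.1 to 61.8 TPM in KO 2 to KO 4. The part of those cells in the Nr4a3 level was not tested.

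The KLF factors, zinc-finger proteins, were the one role in which every member had a difference above 0 with all libraries, though Klf2 turned below 0 without WT 1 and WT 2 and after quantile normalization. Klf10, a TGF-beta-inducible factor (chromosome 15, 38291463 to 38300706 on the minus strand), was at 21.5, 21.3, 18.01 and 24.4 TPM in KO 1 to KO 4, against 3.88, 4.80, 15.2 and 15.7 TPM in the libraries labelled WT 1 to WT 4. All KO libraries lay above all WT libraries, and WT 1 and WT 2 were lowest. Means were 21.3 ± 2.61 TPM in KO and 9.91 ± 6.44 TPM in WT (SD, n = 4 each). Its difference was 1.24 (SE 0.43, unadjusted p = 0.0188, adjusted p = 0.429), and 0.43 (SE 0.15, unadjusted p = 0.0265, adjusted p = 0.999) without WT 1 and WT 2.

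Klf4 was at 6.60 to 10.7 TPM in KO and 2.93 to 8.21 TPM in WT, with WT 1 and WT 2 lowest and a difference of 0.50 (adjusted p = 0.434) that was 0.05 without them. Klf2, which endothelium makes under flow, was at 6.61 to 8.99 TPM in KO and 3.63 to 9.93 TPM in WT. Its difference of 0.15 (adjusted p = 0.773) turned to −0.17 without WT 1 and WT 2, and to just under 0 after quantile normalization.

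Genes known mainly from neurons did not move as a block. Arc, which acts at synapses on AMPA receptor uptake, was at 5.33, 3.82, 4.20 and 4.03 TPM in KO 1 to KO 4, against 20.4, 24.2, 8.47 and 2.85 TPM in the libraries labelled WT 1 to WT 4. WT 1, WT 2 and WT 3 lay above every KO library and the library labelled WT 4 below them. Means were 4.35 ± 0.675 TPM in KO and 14.0 ± 10 TPM in WT (SD, n = 4 each), a difference of −1.16 (SE 0.56, adjusted p = 0.429), and −0.18 without WT 1 and WT 2.

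Npas4, a transcription factor induced by calcium in neurons, was at 4.08, 5.89, 8.94 and 5.66 TPM in KO 1 to KO 4, against 9.51, 6.92, 13.4 and 8.04 TPM in the libraries labelled WT 1 to WT 4. The groups overlapped only through KO 3, and WT 1 and WT 2 did not stand apart. Means were 6.14 ± 2.03 TPM in KO and 9.46 ± 2.82 TPM in WT (SD, n = 4 each). The difference was −0.56 (SE 0.28, unadjusted p = 0.0776, adjusted p = 0.429), and −0.72 (unadjusted p = 0.0601, adjusted p = 0.999) without WT 1 and WT 2, so it was larger in size there.

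Homer1, a scaffold of the postsynaptic density, was at 63.6, 51.3, 56.6 and 54.5 TPM in KO 1 to KO 4, against 51.7, 44.7, 45.5 and 52.3 TPM in the libraries labelled WT 1 to WT 4. KO 2 was the 1 KO library within the WT range. Means were 56.5 ± 5.23 TPM in KO and 48.6 ± 4.03 TPM in WT (SD, n = 4 each), a difference of 0.21 (SE 0.12, adjusted p = 0.429) that was 0.20 without WT 1 and WT 2. The activity-induced product of this gene is the short Homer1a isoform, which gene-level values do not separate from the long ones. Ptgs2, the inducible cyclooxygenase gene, was at 0.18 to 0.39 TPM in KO and 0.09 to 0.44 TPM in WT.

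Feedback regulators of kinase signalling split sharply. Dusp1, a nuclear MAP kinase phosphatase, was at 23.7, 19.3, 16.1 and 14.6 TPM in KO 1 to KO 4, against 85.8, 87.0, 17.9 and 22.1 TPM in the libraries labelled WT 1 to WT 4. WT 1 and WT 2 were at least 3.62 times every other library, and WT 3 and the library labelled WT 4 lay within the KO range. Means were 18.4 ± 4.04 TPM in KO and 53.2 ± 38.4 TPM in WT (SD, n = 4 each), a difference of −1.16 (SE 0.53, adjusted p = 0.429), and −0.13 without WT 1 and WT 2.

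Dusp6, a cytoplasmic phosphatase of ERK, was at 34.3, 41.7, 23.7 and 63.2 TPM in KO 1 to KO 4, against 77.2, 73.3, 27.5 and 33.2 TPM in the libraries labelled WT 1 to WT 4. KO 4 came close to WT 1 and WT 2, and the other KO libraries spread around WT 3 and the library labelled WT 4. Means were 40.7 ± 16.7 TPM in KO and 52.8 ± 26.1 TPM in WT (SD, n = 4 each), a difference of −0.31 (SE 0.41, adjusted p = 0.673), and 0.33 without WT 1 and WT 2. Dusp5, a nuclear phosphatase of ERK, was at 2.55 to 5.96 TPM in KO, against 17.1 and 22.3 TPM in WT 1 and WT 2 and 3.92 and 3.54 TPM in WT 3 and the library labelled WT 4. Trib1, a pseudokinase that binds MEK, was at 8.64 to 16.7 TPM in KO and 10.9 to 31.3 TPM in WT, a difference of −0.69 (adjusted p = 0.429), and −0.15 without WT 1 and WT 2.

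Sik1, a salt-inducible kinase that restrains the CREB coactivators of the CRTC family, was the exception in this role (chromosome 17, 31844250 to 31855804 on the minus strand). It was at 46.0, 60.5, 55.5 and 71.3 TPM in KO 1 to KO 4, against 11.2, 11.4, 43.8 and 44.5 TPM in the libraries labelled WT 1 to WT 4. Every KO library lay above every WT library, though KO 1 exceeded the library labelled WT 4 only narrowly, and WT 1 and WT 2 were the lowest by at least 3.86 times. Means were 58.3 ± 10.5 TPM in KO and 27.7 ± 19.0 TPM in WT (SD, n = 4 each). The difference was 1.31 (SE 0.48, unadjusted p = 0.0253, adjusted p = 0.429), and 0.37 (SE 0.17, unadjusted p = 0.0654, adjusted p = 0.999) without WT 1 and WT 2.

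Growth, survival and stress genes also divided. Gadd45b, which takes part in DNA repair and demethylation (chromosome 10, 80930073 to 80932204 on the plus strand), was at 4.92, 3.37, 2.43 and 4.91 TPM in KO 1 to KO 4, against 9.70, 8.37, 6.28 and 6.90 TPM in the libraries labelled WT 1 to WT 4. All 4 KO libraries lay below all 4 WT libraries, with WT 1 and WT 2 highest but only 1.21 times apart from the next. Means were 3.91 ± 1.23 TPM in KO and 7.81 ± 1.53 TPM in WT (SD, n = 4 each). The difference was −0.86 (SE 0.25, unadjusted p = 0.00852, adjusted p = 0.429), and −0.66 (SE 0.29, unadjusted p = 0.056, adjusted p = 0.999) without WT 1 and WT 2. Gadd45g, its paralog, was at 3.31 to 10.8 TPM in KO, against 27.5 and 28.6 TPM in WT 1 and WT 2 and 8.22 and 6.16 TPM in WT 3 and the library labelled WT 4.

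Ier5, a regulator of heat shock factor activity, was at 40.9, 20.8, 12.2 and 23.6 TPM in KO 1 to KO 4, against 8.27, 8.53, 14.4 and 17.6 TPM in the libraries labelled WT 1 to WT 4. KO 1 was highest, KO 3 lay below WT 3, and WT 1 and WT 2 were lowest. Means were 24.4 ± 12 TPM in KO and 12.2 ± 4.57 TPM in WT (SD, n = 4 each), a difference of 0.89 (SE 0.38, unadjusted p = 0.0461, adjusted p = 0.429) that was 0.46 without WT 1 and WT 2.

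Of the remaining members, Csrnp1, a nuclear protein of the cysteine- and serine-rich family, came closest to Fos. It was at 1.65 to 2.48 TPM in KO, against 9.62 and 9.97 TPM in WT 1 and WT 2 and 2.55 and 1.64 TPM in WT 3 and the library labelled WT 4. Ier3, an apoptosis regulator, was at 3.74 to 10.3 TPM in KO and 3.57 to 15.6 TPM in WT, with WT 1 and WT 2 highest. Ier2 at 6.11 to 13.9 TPM in KO and 5.75 to 15.6 TPM in WT, Cyr61 (a secreted matrix protein gene) at 2.36 to 3.86 and 2.17 to 4.86 TPM, and Btg2 (an antiproliferative gene) at 8.01 to 17.4 and 7.57 to 15.3 TPM had groups that overlapped, with differences of −0.06, −0.04 and 0.40 that did not pass.

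Without WT 1 and WT 2, all 4 KO libraries lay above both WT 3 and the library labelled WT 4 for Egr1, Klf10 and Sik1, or 3 of 31 tested members (9.68%, beside 4.57% of all genes). They lay below both for Gadd45b (3.23%, beside 4.73%). Klf10, Sik1 and Gadd45b thus kept separate groups in either set of libraries, which the full separation fixes, while Egr1 did so only once WT 1 and WT 2 were left out. The KO libraries lay above both also for 5 of the 6 cortical and hippocampal markers (83.3%, beside 4.57% of all genes). The part of those cells in the levels of Egr1, Klf10 and Sik1 was not tested.

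Within the KO group the members tended to be high and low in the same mice. KO 3 held the lowest level for 19 of the 31 tested members (61.3%, beside 29.5% of all genes) and the highest for 1, Npas4. KO 1 held the highest for 16 (51.6%, beside 29.8%), among them 7 of the 8 growth, survival and stress genes. KO 4 held it for 10 (32.3%, beside 31.6%), a share near that of all genes. Among these 10 were Fos, Egr1, Nr4a2, Sik1 and all 3 KLF genes, though Klf2 was at 8.99 TPM in KO 4 and 8.98 TPM in KO 1. Levels of KO 3 and KO 4 differed for Fos at 4.27 and 6.93 TPM, for Dusp6 at 23.7 and 63.2 TPM and for Trib1 at 8.64 and 16.7 TPM. KO 1 stood apart in its forebrain and choroid plexus markers, with Ttr at 404 TPM in it and at 19.1 to 106 TPM in KO 2 to KO 4, and KO 3 had the most GABAergic marker RNA of the 4 at a summed 495 TPM against 160 to 317 TPM. KO 3 was also the lowest of the 4 for 6 of 7 young neuron markers, 4 of 5 choroid plexus markers and 4 of 6 thalamic relay neuron markers. The same held for 4 of 6 endothelial, 3 of 6 myelin and 1 of 3 mural cell markers. It was lowest for none of the astrocyte, microglia, cortical and hippocampal or GABAergic markers. Being lowest in KO 3 was thus not particular to the members. The part of these markers in the order of the libraries was not tested.

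**Figure D4:**
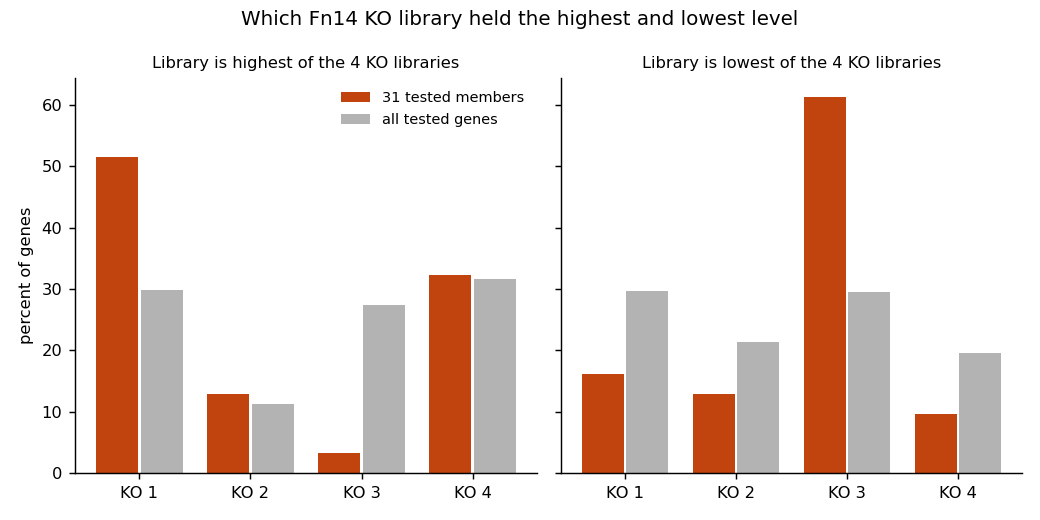
Percent of genes for which each Fn14 KO library was the highest (left) or the lowest (right) of the 4, for the 31 tested immediate early response genes and for all 15967 tested genes. KO 3 was lowest for 61.3% of the members, beside 29.5% of all genes.

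Upstream of these genes, 33 regulators were examined, and none passed (adjusted p from 0.429 to 1). Differences lay above 0 for 20 and below 0 for 13, with a median of 0.04 and of 0.07 without WT 1 and WT 2. Rps6ka1, a kinase of the RSK family that phosphorylates CREB and SRF, had the smallest p, at 26.2 ± 2.75 TPM in KO and 19.0 ± 5.56 TPM in WT (SD, n = 4 each), and a difference of 0.48 (SE 0.22) that was 0.13 without WT 1 and WT 2. It was the 1 regulator whose groups did not overlap (3.03%, beside 2.42% of all genes), a share near that of all genes. The gap was narrow, with 24.16 TPM in the lowest KO library and 23.95 TPM in the highest WT library. Elk3, an SRF cofactor, stood at 0.59 (SE 0.28) and at 0.14 without WT 1 and WT 2. Map2k2, which encodes MEK2, stood at 0.46 (SE 0.22) and at 0.07 without them, and Camk2a, a calcium-dependent kinase, at −1.53 (SE 0.72) and at −0.13 without them.

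Over the 33 regulators, WT 1 and WT 2 were highest for 7 (21.2%, beside 22.5% of all genes) and lowest for 13 (39.4%, beside 40.5%), shares close to those of all genes. The counts by role are small and were not tested against one another. Of the 6 genes of SRF and its cofactors, WT 1 and WT 2 were lowest for 4, with Srf at 14.9 and 16.6 TPM in them, against 20.6 to 27.9 TPM in the other 6 libraries. They were lowest also for 5 of 8 CREB, CRTC and coactivator genes. Of the 8 calcium kinase and calcineurin genes they were highest for 5, with Camk2a at 447 and 393 TPM in them, against 40.9 to 74.6 TPM. Of the 8 ERK and RSK kinase genes they were highest for 1 and lowest for 4. Creb1 and the 3 MEF2 genes showed neither.

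Downstream, 24 late-response genes were examined, and none passed (adjusted p from 0.429 to 0.991). Their differences were above 0 for 12 and below 0 for 12 (median −0.08), and without WT 1 and WT 2 above 0 for 18 and below 0 for 6 (median 0.12). Inhba, which encodes an activin subunit, was at 7.18, 13.6, 4.26 and 7.96 TPM in KO 1 to KO 4, against 0.57, 1.79, 3.35 and 1.89 TPM in the libraries labelled WT 1 to WT 4. All KO libraries lay above all WT libraries for it and for Bdnf, the neurotrophin gene, or 2 of the 24 (8.33%, beside 2.42% of all genes). The same 2 were higher at an unadjusted p under 0.05 (8.33%, beside 5.33%), and Plat was lower (4.17%, beside 2.33%). Differences of 1.67 (SE 0.40) for Inhba and 0.96 (SE 0.28) for Bdnf had unadjusted p of 0.00285 and 0.00755 and an adjusted p of 0.429, and were 1.29 and 0.51 without WT 1 and WT 2. Plat, a secreted protease gene, stood at −0.61 (SE 0.23) and Pim1, a kinase gene, at 0.56 (SE 0.25), with −0.37 and 0.41 without WT 1 and WT 2.

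Within WT, WT 1 and WT 2 were highest for 7 of the 24 late-response genes (29.2%, beside 22.5% of all genes) and lowest for 8 (33.3%, beside 40.5%), shares near those of all genes. Per1, Rasgrp1, Mmp9 and Adcyap1 were chosen here after their values were seen. Per1, a clock gene that CREB also induces, had 85.4 and 75.9 TPM in WT 1 and WT 2, against 20.4 to 28.9 TPM in the other 6 libraries. Rasgrp1, which activates Ras, was at 762 and 595 TPM, against 3.67 to 14.2 TPM. On the low side, Mmp9, a matrix protease gene, was at 0.44 and 0.59 TPM, against 3.21 to 13.6 TPM, and Adcyap1, which encodes the neuropeptide PACAP, at 2.39 and 1.16 TPM, against 11.8 to 33.9 TPM.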

How the data were processed

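The authors deposited 1 matrix of gene-level TPM values for 8 libraries, as its sheet name says, with their mean per group, which was not used. The tools named are BWA and edgeR 3.14.0 and the builds GRCm38 and mm10, per the submitters' processing notes. The sources used here do not give settings, annotation or the treatment of overlapping genes. Sums of TPM over the 23116 genes ran from 968958 to 997426. Reads per library are unknown, so counting error cannot be given, and p-values measure the spread between these mice.

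The 15967 genes whose mean reached 1 TPM were fitted as log2(TPM + 1) with limma 3.58.1 in R 4.3.3 (trend, robust, two-sided, no covariate), with Benjamini-Hochberg adjustment over all of them and a threshold of 0.05. A pseudocount of 1 TPM understates changes of genes of low level. The fit was tested on simulated data with independent noise for each gene. Those data held no split like that of WT 1 and WT 2 from the rest, so the test cannot show how the fit behaves under it. Members and lists were chosen with earlier results of these data known. Every member is named, and full values are given for members with an unadjusted p under 0.05, with groups that do not overlap, among the 10 of highest mean, or classical markers (Fos, Egr1, Arc, Npas4, Nr4a1, Nr4a2), and for up to 4 genes of smallest p of each other list. Alternatives were other pseudocounts, filters, scalings and variance models, array weights, a replicate block and leaving out libraries. Positions are from GENCODE M21 (GRCm38), where Cyr61 is called Ccn1. Tables and figures were made with Python 3.11.15, pandas 2.3.3, numpy 2.4.6 and matplotlib 3.10.9.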

Additional observations from a re-analysis of the deposited data

Results flagged for a closer look

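Of 64 groups of 4 libraries examined (31 tested members and Tnfrsf12a, in KO and in WT), 2 held a library far from the other 3, where chance gives about 1 in 20 groups. Egr4 reached 0.88 TPM in KO 1 and 0.50 to 0.52 TPM in KO 2 to KO 4, on both the TPM and the log2 scale. Nr4a3 reached 53.29 TPM in KO 1 and 3.22 to 11.61 TPM in KO 2 to KO 4, on the TPM scale only. KO 1 was also the library with the highest summed cortical and hippocampal markers, at 405 TPM; its part in these values was not tested.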

How the results depend on the processing

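No tested member passed under any alternative other than array weights, and the median difference over the members stayed below 0 except without both WT 1 and WT 2. Array weights were 0.13 for WT 3 and 0.138 for the library labelled WT 4, against 1.71 for WT 1 and 3.43 for WT 2. With them, 8 members were called higher and 16 lower, among 6569 genes called higher and 3807 lower of 15967. Without trend and robust estimation 1 gene of all was called higher. Leaving out 1 library at a time gave 0 calls among the members, 0 to 1 calls lower among all genes (1 without KO 3), and a median over the members from −0.48 to −0.09. Without WT 1 and WT 2, 2 genes of all were called lower, no member was called, and the median moved to 0.20 (0.15 without KO 1 as well, an alternative chosen after seeing the data).

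Differences that changed sign without WT 1 and WT 2, each followed by its value without KO 1 as well where that also changed, were 0.35 and 0.42 for Fos, 0.49 and 0.33 for Fosl2, 0.30 and 0.32 for Jun, 0.03 for Junb, −0.03 and −0.01 for Jund, 0.80 and 0.86 for Egr1, 0.47 and 0.29 for Ier2, 0.35 and 0.52 for Ier3, 0.18 and 0.05 for Dusp5, 0.33 and 0.39 for Dusp6, 0.11 and 0.03 for Cyr61, −0.17 and −0.22 for Klf2, and 0.05 and 0.00 for Csrnp1. Klf2 was at 0.00, just below 0, after quantile normalization. Leaving out 1 library turned Cyr61 to 0.06 without KO 2 and 0.12 without WT 1, Fosl2 to 0.11 without KO 3, 0.21 without WT 1 and 0.06 without WT 2, Ier2 to 0.12, 0.16 and 0.08 without the same libraries, Klf2 to −0.12 without WT 1, Egr1 to 0.02 without WT 2, and Egr3 to −0.07 without the library labelled WT 4. The far ends of these ranges were −0.18 for Cyr61, −0.32 for Fosl2 and −1.05 for Egr1 without the library labelled WT 4, and −0.27 for Ier2 and 0.56 for Egr3 without WT 3. The cause was not tested.

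Same-numbered KO and WT libraries correlated at −0.10, 0.07, 0.06 and 0.03 in their deviations from the group means, so the numbers were not taken as pairs. The replicate block called no gene and left the median over the members at −0.31. With that block, 3 of the 31 tested members were higher in KO with an unadjusted p below 0.05, beside 901 of all 15967 genes. Lower in KO by the same rule were 3 members, beside 318 of all 15967 genes. The median of all genes was 0.10 as deposited, 0.00 after quantile normalization and −0.01 with trimmed-mean centring. With no filter on low values the median over all 36 members was −0.05. Depth is unknown, so the precision of members under 1 TPM cannot be given.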
